A study of Homo sapiens with 24 samples.

Results

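Sem cells treated with ibrutinib were compared with untreated Sem cells. The comparison rests on 6 of the 24 RNA sequencing libraries, which were taken by cell line and treatment label: 3 from cells given 10 µM ibrutinib for 24 h and 3 from cells left without drug, whose time of harvest was not stated. Sem is an established line of B cell precursor acute lymphoblastic leukaemia with a rearranged KMT2A gene. All Sem groups carry that rearrangement, and 1 line stands for the disease subtype. The other libraries were from Sem given asparaginase or both drugs, which entered the estimate of the spread between replicates, the restoration of the values and the choice of genes to test, and from Nalm6, a B cell precursor leukaemia line without that rearrangement, which served to test differences between lines. The labels speak of triplicates and not of separate cultures, so a p-value here covers the scatter of these libraries, which could be technical alone.

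Ibrutinib binds covalently to Bruton tyrosine kinase (BTK), which passes signals from the B cell receptor, and from its immature form the pre-B cell receptor, on to phospholipase C gamma, the ERK kinase cascade and NF-kB. At high doses it also binds other kinases with a cysteine in the same place, among them the TEC, BLK, JAK3 and epidermal growth factor receptor families. Active ERK switches on immediate early genes such as EGR1 and FOS and a slower set of feedback inhibitors, the DUSP phosphatases and the Sprouty and SPRED proteins, whose messenger RNAs are used as a readout of ERK activity.

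Each gene's level is given as FPKM, fragments per kilobase of transcript scaled to the size of the library, which can be compared between genes because it is per length. The 6 libraries held 15.72 to 18.14 M reads assigned to genes, so that 1 read per kilobase was worth 0.0586 to 0.0678 FPKM. Mitochondrial transcripts took 2.39% to 2.81% of reads. Libraries of a group correlated across genes at r of 0.9847 to 0.9875 and libraries of different groups at 0.9705 to 0.9744. The trend of level on transcript length separated the groups: per doubling of length it was -0.078, -0.018 and -0.073 log2 units in the untreated libraries and 0.013, 0.029 and 0.012 in the ibrutinib libraries. Library 2 stood apart from its group in that trend in both groups. For the lists described in most depth, counts without both and medians after a correction for length and GC content are therefore also given. The change itself was also read from 5 sets of 2067 to 2069 genes each, cut by gene length or by mean level. These sets did not cover all 13417 tested genes, and how their genes were chosen was not stated. Their median change rose with length, from -0.131 in the set with the shortest genes to 0.101 in the set with the longest. It fell with mean level, from 0.0967 in the set with the lowest level to -0.151 in the set with the highest. The gene lists below were not compared with other genes of the same level.

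Markers matched the label in part. The B precursor genes CD79A, PAX5, EBF1, TCF3 and IGLL1 were all expressed, and summed marker levels were 741.4 to 772.2 FPKM untreated and 956.5 to 993.2 with ibrutinib. BLNK, the adaptor between SYK and BTK, was at most 0.172 FPKM in any of the 6 libraries, and CD34, MME, DNTT and RAG1 were likewise near 0. Of 15 myeloid markers, 6 had no read in these libraries, CSF3R, ELANE, FCGR3A, S100A8, S100A9 and S100A12, and the list summed to 6.17 to 7.44 FPKM untreated and 3.23 to 4.04 with ibrutinib. Of 16 T and NK cell markers, 8 had no read, among them CD3D, CD3E and CD8B. That list summed to 109.7 to 124.2 and 84.48 to 91.89 FPKM. Its members TRAC and NKG7 were at 1 FPKM or more in all 6 libraries, and both were called lower. The 10 mature B and plasma cell markers summed to 39.58 to 41.28 and 57.64 to 58.44 FPKM, with IGHD and MZB1 at that level. The 12 erythroid and stromal markers summed to 168.7 to 183.6 and 165.9 to 177.1 FPKM, with VIM and PDGFRB at that level. Among the myeloid markers CSF1R alone was.

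Ibrutinib changed the expression of a large share of the genes by small amounts, and a much smaller set by a large amount, mostly downward. Of 13417 tested genes, 5573 (41.5%) were called at an adjusted p under 0.05 (limma, Benjamini-Hochberg), 2719 (20.3%) higher and 2854 (21.3%) lower. The median size of a called change was 0.31 log2 units in either direction. Called changes of at least 2-fold on the log2(FPKM + 1) scale numbered 38 upward (0.283%), of which 10 were protein-coding, and 71 downward (0.529%), of which 54 were protein-coding. For 6745 genes (50.3%) all 3 ibrutinib libraries lay on one side of all 3 untreated ones. After the values were rescaled to TPM, transcripts per M transcripts, the calls were 3916 higher and 2014 lower, so the split between the directions depended on the scaling. Log2 changes below are differences of mean log2(FPKM + 1), ibrutinib minus untreated, which understate the fold of genes at low levels.

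**Figure D1:**
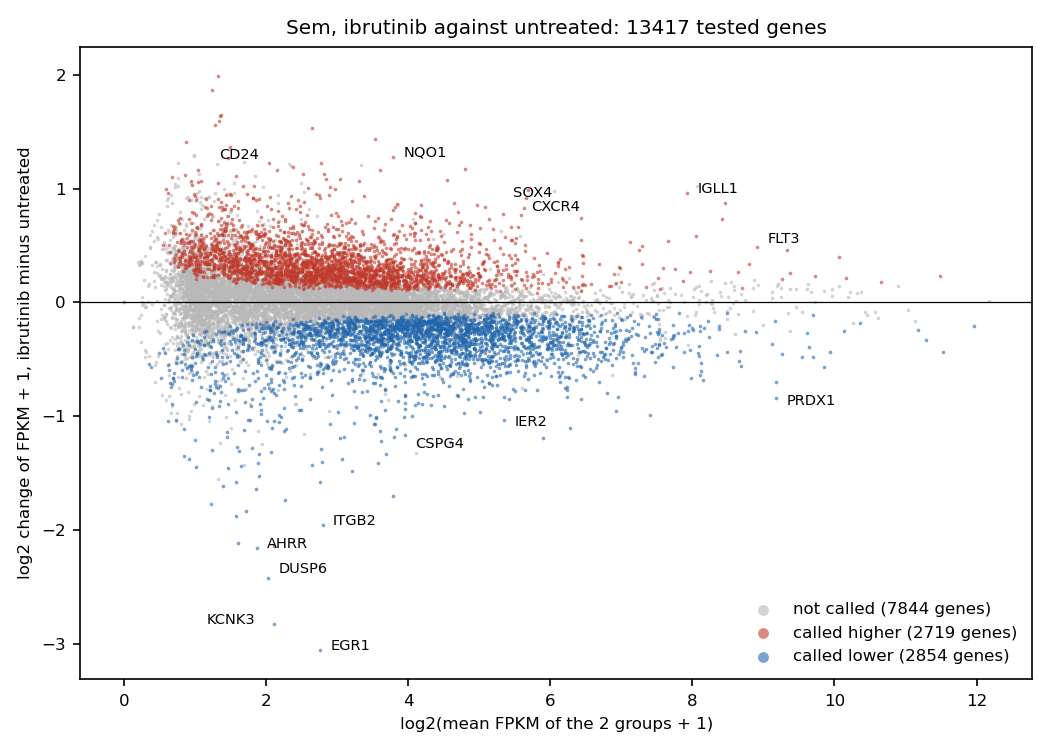
Change with ibrutinib in Sem against expression level for the 13417 tested genes. The horizontal axis is log2 of the mean FPKM of both groups plus 1, the vertical axis the log2 change of FPKM + 1, and red and blue points are genes called higher (2719) and lower (2854); EGR1, KCNK3 and DUSP6 lie lowest at -3.06, -2.83 and -2.42, while few named risers pass 1.

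The transcripts that report ERK activity were among the strongest losses. Of 18 listed ERK feedback inhibitors and targets, 9 were expressed enough to be tested: 7 fell and 1 rose, with a median change of -0.91 beside 0.01 over all tested genes. The median was -0.83 after the length and GC correction, and 7 fell and 0 rose without the libraries numbered 2. DUSP6, ETV5 and SPRY4 were under 1 FPKM in every library with ibrutinib, so they passed the filter on low values only through the groups where they were high and could differ only downward. Among the 4 members at 1 FPKM or more in all 6 libraries, 3 fell and 1 rose, with a median of -0.68. Of all such genes 24.0% fell and 21.3% rose, with a median of -0.001.

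DUSP6, the phosphatase that inactivates ERK, stood at 5.27, 6.01 and 6.44 FPKM in the untreated libraries and at 0.195, 0.41 and 0.272 with ibrutinib. The groups were far apart, with 411 to 490 reads behind each untreated value and 14 to 32 behind each treated one. Its log2 change was -2.42 ± 0.09 (SE, n = 3 per group; limma adjusted p = 4.18e-08). It overlaps a gene on the opposite strand, AC024909.2, and the strandedness of the libraries was not stated.

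SPRY4, a Sprouty inhibitor of growth factor signalling, went from 2.42, 2.69 and 2.73 FPKM to 0.0295, 0.0723 and 0.0672. Between 3 and 8 reads remained in each ibrutinib library, where the untreated libraries held 261 to 294. The log2 change was -1.77 ± 0.08 (limma adjusted p = 1.83e-07). ETV5, an ETS transcription factor induced by ERK, fell evenly, from 3.44, 3.36 and 3.4 FPKM to 0.778, 0.848 and 0.717, a log2 change of -1.31 ± 0.06. SPRED2, which keeps RAF from being activated, fell from a mean of 5.69 to 2.09 FPKM (log2 change -1.11 ± 0.08), and SPRY2, SPRED1 and FOSL1 also fell. SPRY1 was the exception at 1.14 to 1.18 FPKM untreated and 1.45 to 1.89 with ibrutinib, a log2 change of 0.31 ± 0.10 (limma adjusted p = 0.0291) that was not called without a filter on low values (0.31), after quantile normalization (0.23) or without the libraries numbered 2 (0.26).

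Immediate early genes fell with them. Of 24 listed, 18 were tested, and 11 fell while 3 rose, with a median change of -0.29 and of -0.22 after the length and GC correction. Without the libraries numbered 2 the counts were 9 and 2. EGR1 and FOS were under 1 FPKM in every library with ibrutinib and could differ only downward. Among the 14 members at 1 FPKM or more in all 6 libraries 9 fell and 2 rose. Of all such genes 24.0% fell and 21.3% rose. EGR1, the zinc finger factor whose transcription follows ERK activity within minutes, had the lowest log2 change of the genes named here. It stood at 14.6, 8.94 and 9.84 FPKM untreated and at 0.391, 0.34 and 0.562 with ibrutinib, from 414 to 780 reads and 18 to 28 reads. No treated library came near an untreated one, and the mean was 25.8-fold lower (log2 change -3.06 ± 0.23, limma adjusted p = 2.70e-06). EGR1 lies at chr5:138465490-138469315 on the plus strand of GRCh38.

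FOS, the partner of JUN in the AP-1 factor, was low before treatment at 0.761, 1.49 and 1.49 FPKM and fell to 0.0598, 0.11 and 0.0779, with 3 to 6 reads left per library. IER2 fell from 48, 56.3 and 57.7 FPKM to 23.9, 26.5 and 27.1, a log2 change of -1.03 ± 0.10. JUN fell from a mean of 2.95 to 1.31 FPKM, a log2 change of -0.77 ± 0.07. These 3 genes had groups that did not overlap.

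The 250 bases before the start of EGR1 are shown because this stretch is the textbook example of a promoter driven through serum response factor, which binds the CArG box together with ERK-activated ETS partners. The sequence is RefSeq's at chr5:138465229-138465478 of GRCh38.p14, plus strand, 5′ to 3′, with capitals marking the CArG boxes found by search on both strands.
EGR1 promoter: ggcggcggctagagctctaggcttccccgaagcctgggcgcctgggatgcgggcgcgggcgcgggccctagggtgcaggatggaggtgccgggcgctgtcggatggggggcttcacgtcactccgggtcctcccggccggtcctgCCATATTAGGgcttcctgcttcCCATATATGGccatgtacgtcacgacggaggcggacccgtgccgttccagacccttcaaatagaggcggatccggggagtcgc
The 2 boxes begin 105 and 83 bases before the start. A CArG box was found in 406 of 34788 regions of this length (1.17%), and EGR1 was the 1 immediate early gene with one among the 15 whose region was given. A match is a description of the letters in this window only.

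AHRR and CYP1A1, which the aryl hydrocarbon receptor induces, also fell. This ligand-activated factor binds xenobiotic response elements and induces the drug-metabolizing enzyme CYP1A1 and its own repressor, AHRR. AHRR fell from 5.18, 4.92 and 4.86 FPKM to 0.336, 0.409 and 0.287, a log2 change of -2.16 ± 0.06 (limma adjusted p = 6.28e-09) with well separated groups. CYP1A1 was low throughout, with 26 to 34 reads untreated and 1 to 5 with ibrutinib, and means of 0.56 and 0.0554 FPKM. Of 9 listed genes of the pathway 5 were tested, and 3 fell and 1 rose. AHRR and CYP1A1 were under 1 FPKM in every library with ibrutinib and could differ only downward. Of the other 3, NFE2L2 fell, ARNT rose and TIPARP was not called. The upstream region of the first of 2 RefSeq starts of AHRR is shown because AHRR fell most and the region holds an element of the letters TNGCGTG, in capitals, 32 bases before the start (chr5:321464-321713 of GRCh38.p14, plus strand, 5′ to 3′).
AHRR promoter: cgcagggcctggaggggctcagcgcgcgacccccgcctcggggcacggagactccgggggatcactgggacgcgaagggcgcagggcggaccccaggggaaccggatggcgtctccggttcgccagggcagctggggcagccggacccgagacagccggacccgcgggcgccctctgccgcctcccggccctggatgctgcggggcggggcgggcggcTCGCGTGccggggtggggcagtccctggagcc
That element, searched on both strands, was in 1569 of 34788 regions (4.51%). Of the 5 tested genes of the list 2 had one, AHRR and NFE2L2, and CYP1A1 had none. The region before the second start of AHRR held none. A match here too is a description of the letters only.

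The other large falls included ion channels, surface proteins and secreted factors. KCNK3, a potassium leak channel, dropped from 6.94, 6.16 and 6.59 FPKM to 0.0415, 0.0858 and 0.0709. It was all but lost, with 566 to 736 reads per untreated library and 4 to 9 per ibrutinib library, and its mean was 99.4-fold lower (log2 change -2.83 ± 0.07, limma adjusted p = 7.81e-10). TRPM2, a calcium channel opened by oxidative stress, fell from a mean of 6.42 to 1.23 FPKM. EMP1, a tetraspan membrane protein, fell from 3.61, 4.32 and 3.98 FPKM to 0.156, 0.136 and 0.137 (log2 change -2.12 ± 0.08). TNF, the inflammatory cytokine, varied widely within its groups, at 3.22, 3.6 and 5.71 FPKM against 0.154, 0.672 and 0.489, and its log2 change was -1.83 ± 0.21. ALOX5AP, which presents arachidonic acid to 5-lipoxygenase, fell from 3.71 to 0.288 FPKM and PRKD2, a diacylglycerol-activated kinase, from 9.15 to 2.41. KCNK3, EMP1, TNF and ALOX5AP were under 1 FPKM in every ibrutinib library. They passed the filter on low values only through other groups and could differ only downward. TMEM119 and SMAGP, both membrane proteins, changed by -1.58 and -1.53, and SMAGP overlaps DAZAP2 on the opposite strand.

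**Figure D2:**
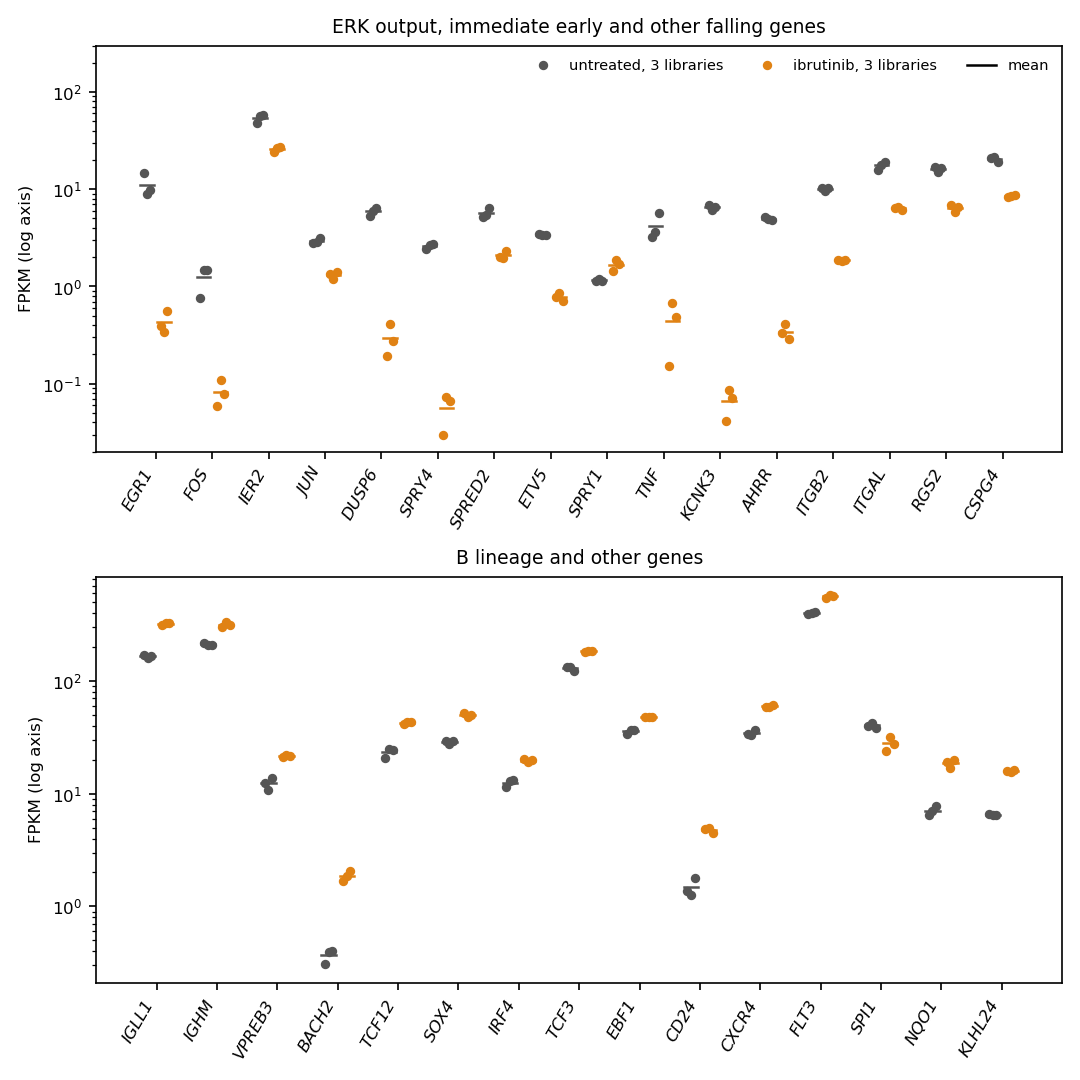
FPKM of the genes on the horizontal axis in each of the 3 untreated (grey) and 3 ibrutinib (orange) Sem libraries on a logarithmic axis, with bars at the group means. EGR1, DUSP6, SPRY4 and KCNK3 drop furthest, while IGLL1, BACH2, CD24 and NQO1 rise with no overlap between groups.

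Most adhesion and homing genes fell. Of 18 tested genes for chemokine receptors, adhesion and migration, 12 fell and 3 rose, with a median change of -0.23 (-0.19 after the length and GC correction), and 9 fell and 2 rose without the libraries numbered 2. CXCR3 and ITGA6 were under 1 FPKM in every library with ibrutinib. Among the 16 members at 1 FPKM or more in all 6 libraries 10 fell and 3 rose, where 24.0% and 21.3% of all such genes did. Both chains of the leukocyte integrin LFA-1 fell. ITGB2, its beta chain, went from 10.3, 9.54 and 10.4 FPKM to 1.87, 1.84 and 1.86, a log2 change of -1.95 ± 0.05 (limma adjusted p = 3.12e-09). ITGAL, its alpha chain, went from 15.9, 17.8 and 19 FPKM to 6.39, 6.55 and 6.09 (log2 change -1.33 ± 0.06), though 2 genes overlap it on the opposite strand. ICAM1, the ligand of that integrin, fell from 3.86 to 2.14 FPKM. FUT7, the fucosyltransferase that makes selectin ligands, fell from 12.6 to 3.87 FPKM. RGS2 and RGS16, which shorten G protein signalling, fell from 16.2 to 6.39 and from 10.9 to 4.23 FPKM. CXCR4, the receptor that holds B cell precursors in the marrow, went the other way: 33.8, 33.5 and 36.5 FPKM untreated and 59, 58.7 and 61.1 with ibrutinib. Its log2 change was 0.77 ± 0.06 (limma adjusted p = 3.72e-06).

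Some of the falling genes are also expressed by myeloid cells: ITGB2, ALOX5AP, and ANPEP, the surface peptidase CD13, which fell from 19.8, 21 and 19.6 FPKM to 5.54, 5.55 and 5.4. SPI1, the myeloid and B cell factor PU.1, fell from a mean of 40.2 to 27.9 FPKM. CEBPA, a myeloid factor chosen here after its values were seen, fell from 105 to 48.3 FPKM (log2 change -1.10). The summed myeloid markers given above fell in parallel, and the defining neutrophil genes had no read; the part of other cells in these changes was not tested.

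In contrast to the ERK, immediate early and adhesion lists, transcription factors of the B lineage mostly rose. Of 27 listed, 25 were tested: 18 rose and 3 fell, with a median change of 0.34, or 0.27 after the length and GC correction, where again 18 rose. The counts were the same without the libraries numbered 2. Among the 22 at 1 FPKM or more in all 6 libraries, 15 rose and 3 fell, beside the 21.3% and 24.0% of all such genes. TCF12, an E protein, rose from 20.5, 25 and 24.3 FPKM to 41.2, 43 and 42.8, a log2 change of 0.84 ± 0.06 (limma adjusted p = 2.25e-06). SOX4, needed for B cell precursors to survive, rose from 29.2, 27.7 and 29.3 FPKM to 52.4, 47.7 and 50.1, a log2 change of 0.78 ± 0.04. In each, the lowest treated library was well above the highest untreated one. BACH2, a repressor that acts at the pre-B cell receptor checkpoint, rose from 51 to 65 reads per library to 254 to 321, or from means of 0.368 to 1.87 FPKM, and passed the filter only through its treated level.

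Further members rose by less. IRF4, which acts with PU.1 in B cell differentiation, rose from a mean of 12.5 to 19.7 FPKM (log2 change 0.61). TCF3, an E protein at the head of the B cell programme, rose from 133, 132 and 121 FPKM to 180, 183 and 184 (log2 change 0.50 ± 0.04) and EBF1, which commits cells to the lineage, from 35.7 to 48 FPKM (0.42 ± 0.04). The 3 that fell were SPI1 (log2 change -0.52), its relative SPIB (-0.42) and ID1, an inhibitor of E proteins, at -0.29 ± 0.09, which was -0.10 and not called after the length and GC correction.

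The parts of the pre-B cell receptor moved in both directions. IGLL1, which encodes the lambda5 chain of the surrogate light chain, rose from 170, 158 and 165 FPKM to 316, 326 and 324, a 1.96-fold higher mean (log2 change 0.96 ± 0.04, limma adjusted p = 1.39e-07). Every treated library was well above every untreated one. IGLL1 resembles IGLL5 in sequence, so reads could be split between them, and IGLL5, looked at for that reason after its values were seen, fell from 3.98 to 1.03 FPKM. IGHM, the mu heavy chain, rose from a mean of 211 to 316 FPKM and VPREB3, which binds the heavy chain in the endoplasmic reticulum, from 12.4 to 21.5. CD79B, the receptor's signalling beta chain, rose from 7.25 to 10.7 FPKM. CD79A, the alpha chain, had means of 104 and 89.7 FPKM in groups that overlapped, and its log2 change of -0.21 was -0.03 after the length and GC correction and 0.003 after quantile normalization, called under neither.

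Of 27 tested genes of the receptor and its BTK pathway, 9 rose and 8 fell with a median change of 0.01. The share called was 63.0%, beside 41.5% over all tested genes. BTK itself was 39.3, 40.5 and 39.3 FPKM untreated and 35.6, 37.6 and 39.3 with ibrutinib. The groups overlapped and the change of -0.08 ± 0.04 was not called (limma adjusted p = 0.101). SYK, the kinase upstream of BTK, had means of 26.1 and 29.5 FPKM (log2 change 0.17, limma adjusted p = 0.0124). VAV1, an exchange factor that the receptor activates, fell from 22.4, 21.9 and 23.7 FPKM to 13, 12.6 and 12.4 (log2 change -0.79 ± 0.04). PTPN6, the phosphatase SHP-1 that dampens receptor signals, fell from 142, 147 and 144 FPKM to 105, 117 and 106 (log2 change -0.40 ± 0.04).

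Among 10 tested kinases that ibrutinib is known to bind, 5 rose and 2 fell, beside 20.3% and 21.3% of all tested genes. Without the libraries numbered 2 the counts were 3 and 2. TEC, the family namesake, rose from 5.05, 6.32 and 5.12 FPKM to 9.57, 9.24 and 9.27 (log2 change 0.68 ± 0.08). ERBB2, a receptor of the epidermal growth factor family, rose from 5.77 to 8.07 FPKM. CSK, which holds SRC family kinases inactive, fell from 45.2, 42.1 and 45.7 FPKM to 25.9, 26.4 and 26.9 (log2 change -0.73 ± 0.04, limma adjusted p = 2.51e-07). None of these 3 had overlapping groups.

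Genes that mark KMT2A-rearranged leukaemia did not move as one. Of 22 tested, 8 rose, 3 fell and 11 were not called, and the median of 0.15 was 0.05 after the length and GC correction. The share called was 50.0%, beside 41.5% over all tested genes. HOXA9, the direct target of the KMT2A fusion, was 29.8, 27.4 and 28.9 FPKM untreated and 28.3, 30.1 and 27.7 with ibrutinib (log2 change 0.00 ± 0.04). MEIS1, its cofactor, had means of 9.83 and 9.2 FPKM and was not called, though its change was called at -0.20 after the length and GC correction. FLT3, the receptor tyrosine kinase that these leukaemias express highly, rose from 388, 404 and 408 FPKM to 545, 576 and 564 (log2 change 0.49 ± 0.04, limma adjusted p = 4.26e-06). MYB, another target, rose from 35.8 to 53.7 FPKM. CSPG4, the surface proteoglycan NG2 used to detect these leukaemias, fell from 20.8, 21.6 and 18.9 FPKM to 8.34, 8.52 and 8.74 (log2 change -1.17 ± 0.06). LGALS1, galectin-1, fell from a mean of 140 to 80.3 FPKM.

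Leukaemia surface antigens were as mixed, with 8 higher and 6 lower among 19 tested (73.7% called, beside 41.5% over all tested genes). CD24, the antigen that B cell precursors carry and KMT2A-rearranged cells usually lack, rose from 1.36, 1.27 and 1.79 FPKM to 4.87, 4.96 and 4.48, a 3.24-fold higher mean (log2 change 1.23 ± 0.11). CD52 and CD99 fell by 0.72 and 0.60 on the log2 scale.

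Growth genes fell broadly. Of 37 tested genes of a list of MYC, its partner MAX and MYC-induced genes 30 fell and 3 rose, with a median change of -0.40, and 28 fell without the libraries numbered 2. MYC itself, 1 of the 3 that rose, was 155, 154 and 155 FPKM untreated and 170, 169 and 172 with ibrutinib, a small rise of 0.14 ± 0.03 (limma adjusted p = 1.33e-03). TFRC, the transferrin receptor, fell from 49.6, 56.1 and 57.1 FPKM to 30, 29.9 and 28.9 (log2 change -0.85 ± 0.05). NME1 and MRTO4, a nucleotide kinase and a ribosome assembly factor, changed by -0.80 and -0.77. Among 11 tested partners of the MYC-binding protein MAX and linked genes 3 rose, 4 fell and 4 were not called. Their median change of 0.10 was -0.04 after the length and GC correction. The antagonists MXD4 and MXI1 rose from 4.79 to 9.0 and from 3.88 to 6.62 FPKM, while MXD1, MXD3 and MNT were not called.

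Ribosome biogenesis and RNA polymerase I genes fell in 26 of 29 with none rising (median -0.43), among them EBNA1BP2 and NOP16 (log2 changes -0.68 and -0.63). The ribosomal proteins themselves were mostly not called: 7 rose and 2 fell among 76 (11.8% called, beside 41.5% overall). Their median change was 0.08, and 0.14 with 29 rises and 2 falls after the length and GC correction. After rescaling to TPM 36 rose and 1 fell, but that scaling moved the median of all tested genes from 0.01 to 0.10. RPL3 and RPL22, of the large subunit, rose by 0.26 and 0.33, while RPS26 changed by -0.70.

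DNA replication genes fell in 37 of 43 with 1 rise (median -0.27). CDC45, of the replicative helicase, fell from a mean of 32.7 to 22.1 FPKM, FEN1, the flap nuclease, from 95.8 to 66.2, and RFC2, of the clamp loader, from 65.3 to 44.8. Its partner RFC5 was the exception, rising from 40.3 to 57.9 FPKM (log2 change 0.51 ± 0.04), but it overlaps WSB2 on the opposite strand. Purine and pyrimidine synthesis fell in 19 of 21. Mitosis genes moved less: 11 fell, 1 rose and 22 were not called, and the median was -0.08. It was 0.005 after rescaling to TPM, which moved all tested genes upward as given above, and 0.07 after quantile normalization, which left their median at 0.01. Without the libraries numbered 2, 11 fell and 4 rose. CDC20, the activator of the anaphase complex, fell from 105, 106 and 105 FPKM to 72.4, 79 and 75.3.

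**Figure D3:**
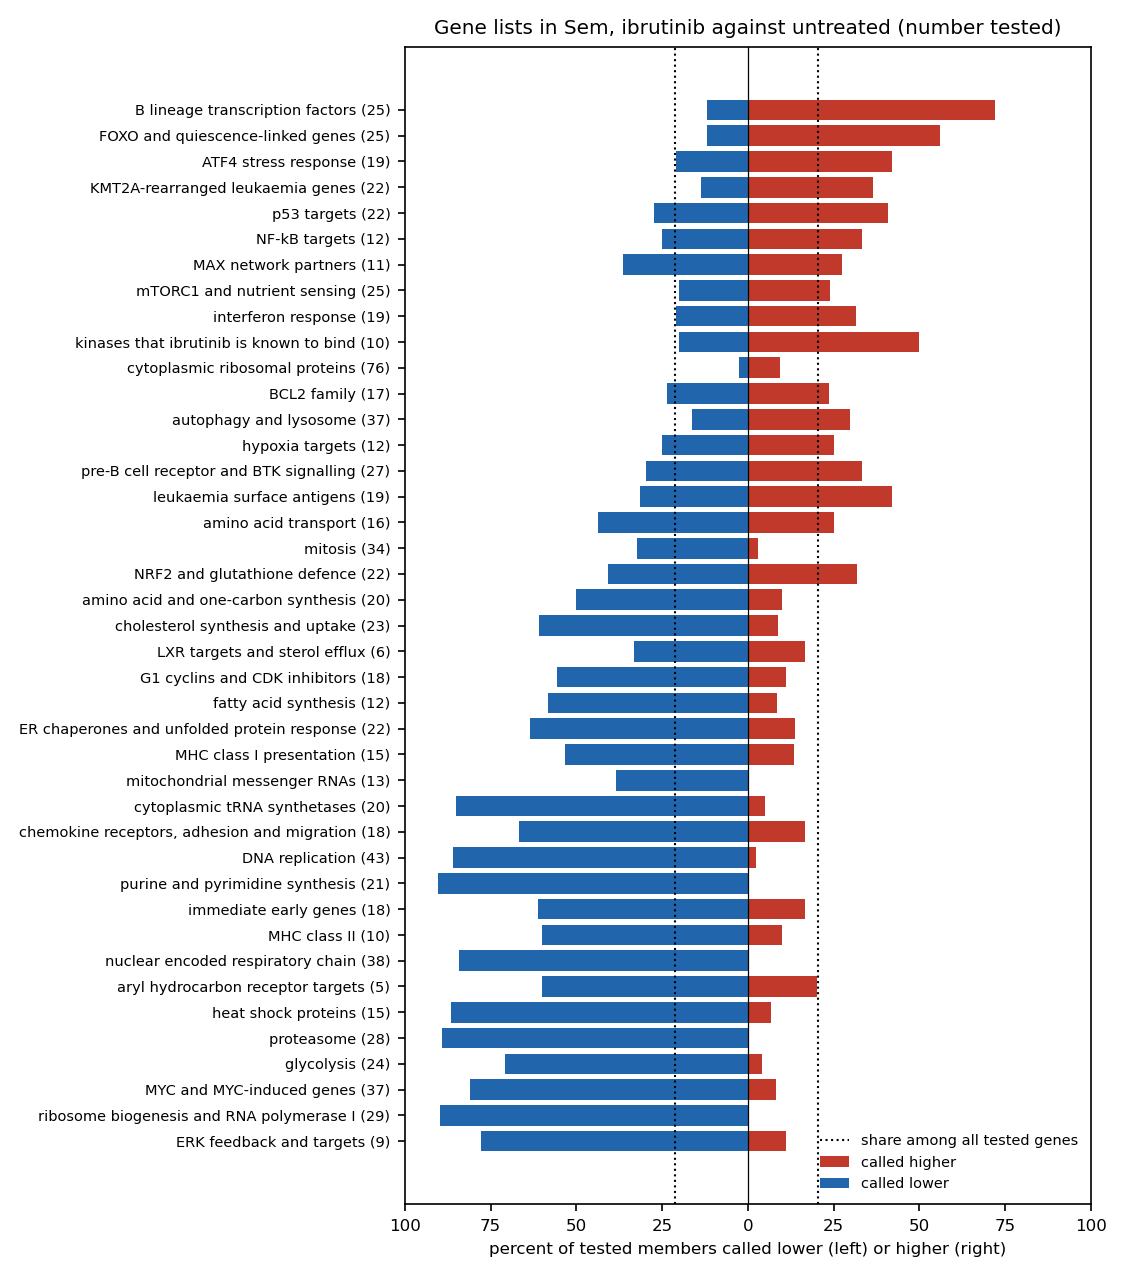
Share of tested members of each gene list called higher (red, right) or lower (blue, left) with ibrutinib in Sem, in percent, with the shares over all tested genes as dotted lines (20.3% and 21.3%). Ribosome biogenesis, purine and pyrimidine synthesis and proteasome genes extend furthest to the left and B lineage transcription factors furthest to the right.

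Energy metabolism and protein quality control fell as widely. Of 38 tested nuclear genes of the respiratory chain 32 fell and none rose (median -0.36), with ATP5MC1, of the ATP synthase ring, falling from a mean of 31.9 to 17.7 FPKM. Glycolysis genes fell in 17 of 24 (median -0.39). LDHA, which makes lactate, went from 152, 158 and 164 FPKM to 86.3, 88.4 and 90.1, and ENO1, enolase, from 340, 344 and 362 to 217, 218 and 217. Both had groups far apart, and their log2 changes were -0.83 ± 0.04 and -0.68 ± 0.03. Proteasome genes fell in 25 of 28 (median -0.39), heat shock proteins in 13 of 15 (median -0.38) and cytoplasmic tRNA synthetases in 17 of 20 (median -0.22). PSMA7, of the proteasome core, fell from 177 to 114 FPKM, VARS, the valine enzyme, from 39.8 to 24.2, and the chaperonin HSPD1 from 327 to 226. Beside the trend on gene length given above, 30 respiratory chain, 26 proteasome and 13 heat shock genes fell after the correction for length and GC content. Of 13 mitochondrial messenger RNAs 5 fell, and none was called after that correction. The median change was also -0.151 in the set of 2068 genes with the highest mean level, drawn from part of the tested genes. How much of these falls goes with level was not tested.

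Genes linked to FOXO factors and quiescence rose more often than they fell. FOXO factors enter the nucleus when AKT activity is low, and neither was measured here. Of 25 tested genes 14 rose, 3 fell and 8 were not called, beside 20.3% higher and 21.3% lower over all tested genes. The median change was 0.24 (0.21 after the length and GC correction), and 12 rose and 2 fell without the libraries numbered 2. Among the 23 members at 1 FPKM or more in all 6 libraries 12 rose and 3 fell. YPEL3, linked to growth arrest, rose from 15.2, 12.8 and 14.1 FPKM to 28.6, 30.9 and 32.6 (log2 change 1.08 ± 0.06, limma adjusted p = 6.13e-07). SESN3, a sestrin that restrains mTORC1, rose from a mean of 0.845 to 2.56 FPKM and so lay below the filter in the untreated group. CCNG2, an atypical cyclin of resting cells, rose from 8.66, 8.65 and 9.2 FPKM to 14.7, 14.5 and 15.3. TXNIP, which limits glucose uptake, went against these and fell from 18 to 13 FPKM. TRIB1 and KLF6 fell too, with log2 changes of -0.54 and -0.31. CDKN1B, BCL2L11, BCL6, IRS2 and SESN1 were among the members not called. ARRDC3, an arrestin relative of TXNIP, rose from 4.3 to 10.2 FPKM.

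Cell death and cell cycle brakes moved in both directions. BCL2, the anti-apoptotic protein, rose from 29, 29.8 and 30 FPKM to 38.7, 38.2 and 40.4 (log2 change 0.39 ± 0.03, limma adjusted p = 9.38e-06). MCL1, its relative, fell from a mean of 66.1 to 58.8 FPKM, a change of -0.16 that was 0.03 after quantile normalization. CDKN1A, the p21 inhibitor of cyclin-dependent kinases, fell from 58.8, 59.8 and 59.9 FPKM to 42.2, 44.7 and 43.6. Of 22 tested p53 targets 9 rose and 6 fell (68.2% called, beside 41.5% over all tested genes). TP53INP1, a p53-induced autophagy and death factor, rose from 0.371 to 1.64 FPKM, but it overlaps NDUFAF6.

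Genes of the NRF2 and glutathione defence moved in both directions. NQO1, the quinone reductase induced by NRF2, had the highest log2 change of the rises named here, from 6.45, 7.04 and 7.77 FPKM to 19.1, 16.9 and 20 (log2 change 1.28 ± 0.08, limma adjusted p = 1.23e-06). GCLM and GCLC, the subunits of the enzyme that starts glutathione synthesis, each rose by 0.36. PRDX1, a peroxidase of the same defence, fell from 772, 696 and 762 FPKM to 419, 401 and 422 (log2 change -0.84 ± 0.05). In all, 7 of 22 tested genes of that defence rose and 9 fell (72.7% called, beside 41.5% over all tested genes).

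Genes of the ATF4 stress response also moved in both directions, with more rises than falls. Of 19 tested targets 8 rose and 4 fell (median 0.16), beside 20.3% and 21.3% of all tested genes. After the length and GC correction 12 rose and 4 fell (median 0.21), and 5 rose and 3 fell without the libraries numbered 2. ATF4 had means of 199 and 203 FPKM and was not called, but was called at 0.16 after the length and GC correction, 0.17 after quantile normalization and 0.11 after rescaling to TPM. ASNS, asparagine synthetase, was at 0.434, 0.243 and 0.219 FPKM untreated and 0.449, 0.413 and 0.396 with ibrutinib, and its groups overlapped. CHAC1 and DDIT3 had changes of 0.21 and 0.22 that were not called, but were called after the length and GC correction at 0.36 and 0.38. KLHL24 rose from 6.66, 6.42 and 6.45 FPKM to 15.9, 15.6 and 16.1 (log2 change 1.17 ± 0.05), and VLDLR, a lipoprotein receptor, from 6.17 to 12.7 FPKM. DDIT4, an mTORC1 inhibitor, fell from 70.2, 71.2 and 68.9 FPKM to 42.2, 37.5 and 42.9 (log2 change -0.77 ± 0.06), while the kinase-like TRIB3 had means of 2.6 and 1.82 in overlapping groups, and its log2 change of -0.35 was -0.18 and not called without the libraries numbered 2.

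Cholesterol synthesis and uptake genes fell by small amounts, 14 of 23 with 2 rises and a median of -0.14. The set of 2068 genes with the highest mean level, drawn from part of the tested genes, had a median of -0.15. HMGCS1, which makes the precursor of mevalonate, had 79.4, 75.8 and 79.9 FPKM untreated and 68, 67.4 and 66.5 with ibrutinib (log2 change -0.22 ± 0.03, and -0.03 and not called after quantile normalization).

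Genes of MHC class II fell in 6 of 10 with 1 rise (median -0.32). HLA-DMB was under 1 FPKM in every library with ibrutinib and could differ only downward. Among the 9 members at 1 FPKM or more in all 6 libraries 5 fell and 1 rose (median -0.25), beside 24.0% and 21.3% of all such genes. HLA-DRB1 fell from 17.7, 22.1 and 19.9 FPKM to 12.1, 13.5 and 11.5, and CD74, the invariant chain, from a mean of 413 to 304 FPKM. NF-kB targets were mixed, with 4 higher and 3 lower of 12 (58.3% called, beside 41.5% over all tested genes). TNF was under 1 FPKM in every library with ibrutinib and could differ only downward. Among the 9 members at 1 FPKM or more in all 6 libraries 2 rose and 2 fell. TNFAIP3 and NFKBIA, the pathway's feedback inhibitors, rose from 2.47 to 4.54 and from 16.2 to 21.3 FPKM, while ICAM1 and TNF fell.

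**Figure D4:**
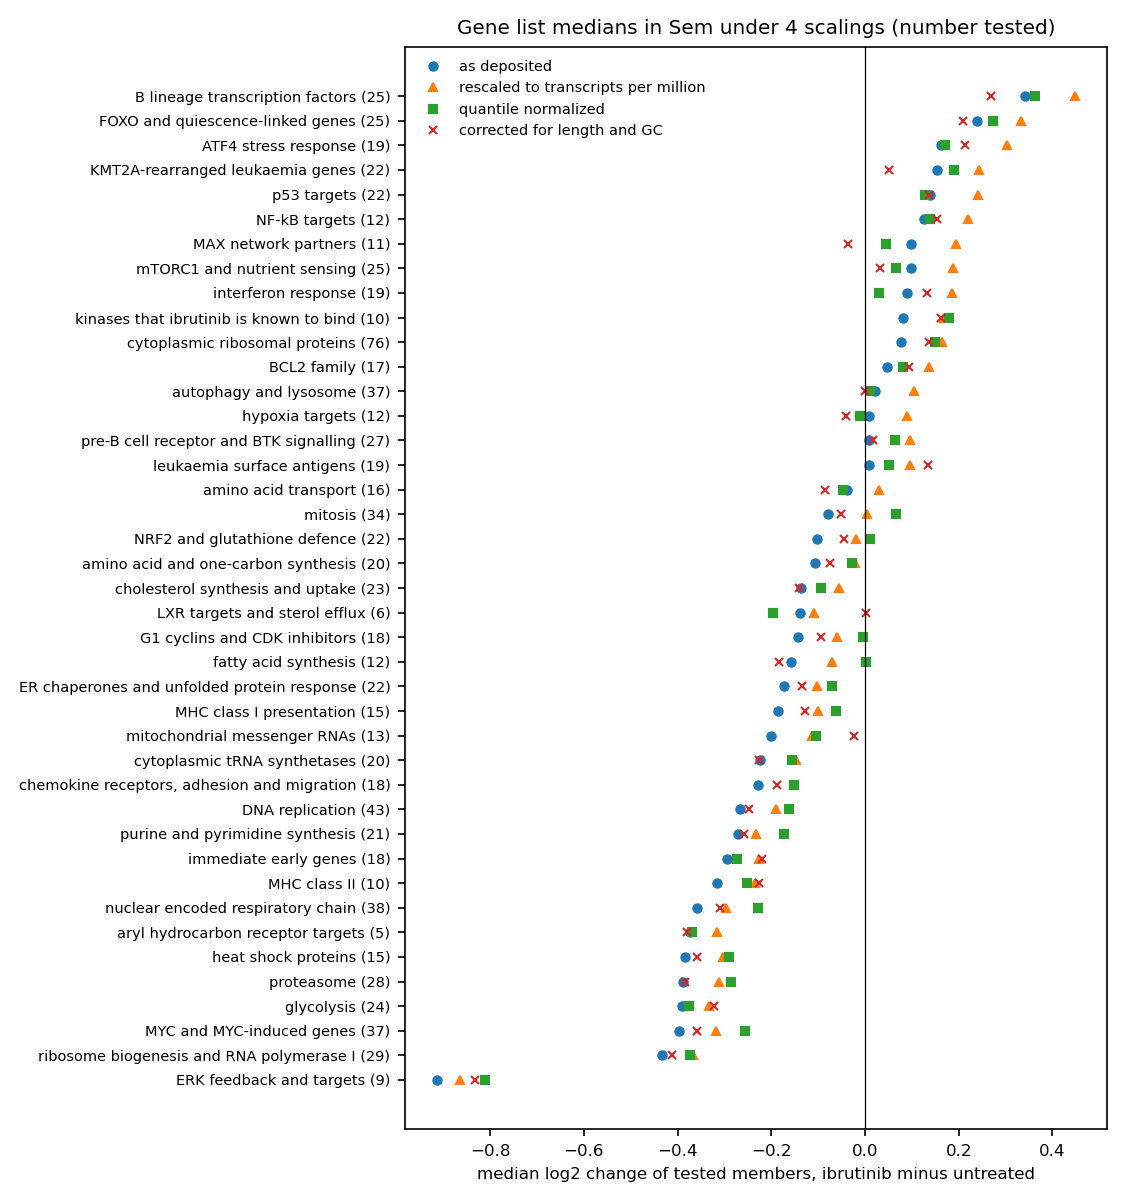
Median log2 change of the tested members of each list in Sem, ibrutinib minus untreated, for the values as deposited and after 3 other scalings. The ERK list lies lowest at -0.91 and the B lineage factors highest at 0.34 as deposited, while mitosis lies at -0.08 as deposited and 0.07 after quantile normalization. The ERK list holds 3 members that could differ only downward, and its median was -0.68 among the 4 at 1 FPKM or more in all 6 libraries. Rescaling to TPM moved the median of all tested genes from 0.01 to 0.10.

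Among the remaining large rises were SMIM14 and TMEM136, small membrane proteins whose means went from 1.76 to 5.17 and from 3.6 to 8.75 FPKM, and MMP11, a matrix metalloprotease, from 5.38 to 12.4 FPKM. MMP11 overlaps CHCHD10 on the opposite strand. FCRLA, an intracellular Fc receptor-like protein of B cells, rose from 3.12, 3.73 and 3.52 FPKM to 7.51, 7.31 and 8.06. NIPSNAP3B, YPEL2, HIST1H2AC and AC119396.1 rose by 0.99, 0.95, 1.02 and 0.95 on the log2 scale.

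The response was set against that of Nalm6 under the same drug, in which 660 of 13237 genes (4.99%) were called higher and 987 (7.46%) lower. The difference of the changes, Sem minus Nalm6, was called for 2064 of 15116 genes (13.7%), 1143 positive (7.56%) and 921 negative (6.09%). Of the ERK list 7 had a called negative difference and 1 a positive one. The list's median change in Nalm6 was 0.04 over the 7 members tested there. SPRY4 had means under 1 FPKM in Nalm6, so its difference rests mainly on Sem. EGR1 had means of 2.85 and 3.76 FPKM in Nalm6 without and with ibrutinib, and the difference was -3.37 ± 0.28 (SE; limma adjusted p = 8.1e-08). DUSP6 rose in Nalm6, from 17.7 to 23.4 FPKM, and the difference was -2.81. ETV5 rose there from 4.76 to 7.06 FPKM, with a difference of -1.79. TNF differed by -2.54 and AHRR by -2.34, and neither fell in Nalm6, where AHRR had means of 0.547 and 0.758 FPKM. The differences for KCNK3 and ITGAL rest on Sem alone, since the means in Nalm6 were at most 0.0129 and 0.0191 FPKM.

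The B lineage factors differed in the other direction, with 15 positive and 0 negative differences and a Nalm6 median of -0.04. SOX4 differed by 0.93, IRF4 by 0.71 and TCF12 by 0.64. IGLL1 had means of 1030 and 858 FPKM in Nalm6, and its difference of 1.23 ± 0.13 was called. BCL2, which fell in Nalm6 from 5.57 to 3.61 FPKM, differed by 0.90. RHOB, a small GTPase, HDAC9, a histone deacetylase, and PLD4, a lysosomal nuclease, rose in Sem and fell in Nalm6, with differences of 1.59, 1.48 and 1.37. PTPN6 fell in both lines and by less in Sem, a difference of 1.08.

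ATF4 targets and cholesterol genes also differed between the lines. Of ATF4 targets 16 of 19 rose in Nalm6, with a median of 0.38, and the difference was called negative for 9 and positive for 2: CHAC1 by -0.69, DDIT3 by -0.64, TRIB3 by -0.81 and DDIT4 by -1.15. Cholesterol genes fell in 17 of 22 in Nalm6 (median -0.42), and the difference was positive for 10 and negative for 2, with HMGCS1 at 0.73. Some changes did not differ by a called amount: NQO1 rose in both lines, with a difference of 0.33 (limma adjusted p = 0.12), and CCNG2, TP53INP1, CDC20 and VARS had differences between -0.09 and 0.14. These last comparisons do not show that the lines responded alike.

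**Figure D5:**
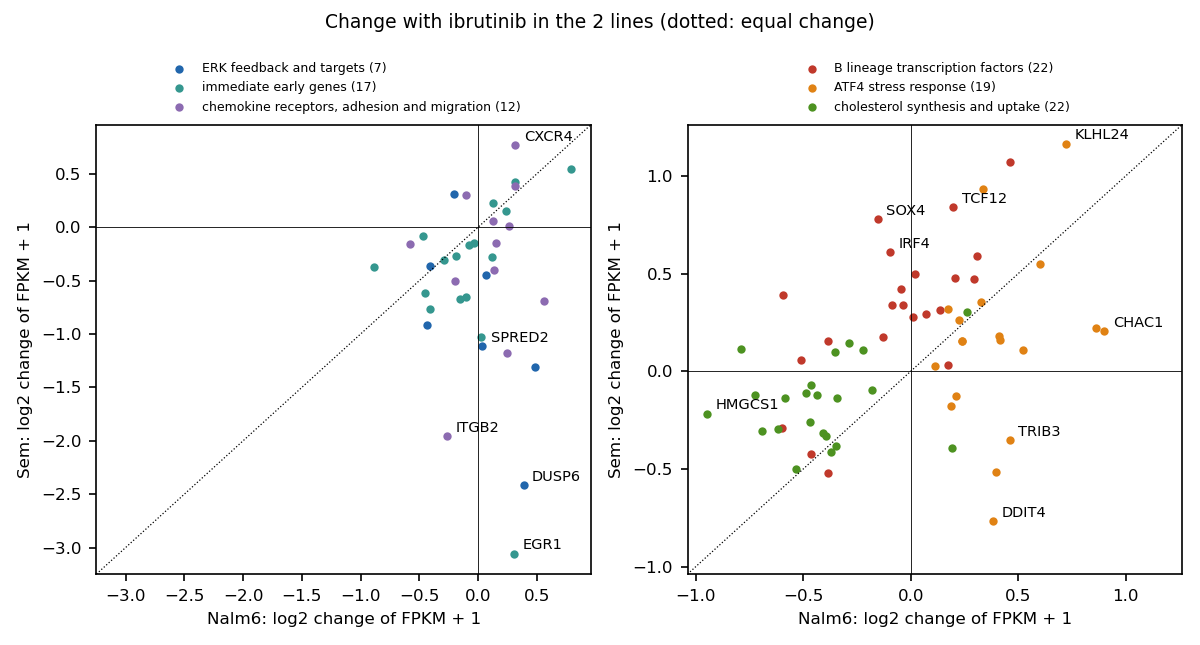
Log2 change of FPKM + 1 with ibrutinib in Sem (vertical) against Nalm6 (horizontal) for list members tested in both lines, with a dotted line of equal change. EGR1, DUSP6 and ITGB2 lie far below the line, B lineage factors such as SOX4 and IRF4 above it, and ATF4 targets such as CHAC1, TRIB3 and DDIT4 below it.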

How the data were processed

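RNA was sequenced from Sem and Nalm6 cells, 3 libraries for each of 8 groups; libraries were prepared from RNeasy-purified RNA with a NEBNext Ultra kit, per the labels' protocols. The authors deposited 1 table of FPKM for 58735 genes, made with fastp, STAR and featureCounts on hg38, per the submitters' processing notes, which give no versions; strandedness and the scaling method are not given in the sources used here. Deposited FPKM values of 1 or more had lost the decimal point. FPKM times gene length was a whole multiple of 1 step per library (largest deviation 9.1e-13 reads), so for each gene the powers of 10 were restored jointly over the 12 libraries of a line, scored by Student t priors with 5 degrees of freedom (log10 scales 0.07 for replicates, 0.1 for ibrutinib, 0.13 for asparaginase and 0.08 for their interaction). Of 74840 such values in the 6 libraries, 89 in 68 of the 13417 tested genes had a posterior under 0.99. Values under 1 were read as deposited. In the recovered read counts of 100 or more, 10.15% were multiples of 10.

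Genes that reached 1 FPKM in 3 or more of the 12 Sem libraries were tested with limma 3.58.1 (limma-trend, R 4.3.3) on log2(FPKM + 1), two-sided, with 8 residual degrees of freedom and Benjamini-Hochberg adjustment over all tested genes, and called at an adjusted p under 0.05. Differences from Nalm6 used all 24 libraries and 16 residual degrees of freedom. The restoration and the test were also checked on simulated data; there, most changes of 8-fold or more made with ibrutinib and not in the combination were restored wrongly, so such changes could be misjudged. The 15 largest falls named here were also low in the combination, and no such check was made for other genes. Both groups were restored jointly, so for values of 1 or more this is not an independent check.

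Named are the 15 protein-coding genes with the largest called rise and fall (mean FPKM of at least 2 in 1 group, groups not overlapping, no uncertain value), up to 4 called members of each list in each direction, a fixed set that includes BTK, BLNK, EGR1, DUSP6, FLT3 and HOXA9, and the 5 largest differences between lines in each direction; members beyond these are named without values unless stated, and a few genes of the rule are not reported here. The comparison, the 42 gene lists and 5 marker lists were chosen with earlier results of these data known. Promoter sequences are RefSeq's for GRCh38.p14, and positions are those of GENCODE 29 on GRCh38. Alternatives covered the samples fitted, replicate block, pseudocount, filter, scaling, limma-voom on the recovered reads, uncertain values and each library left out; a correction for length and GC content was chosen after seeing the data.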

Additional observations from a re-analysis of the deposited data

Results flagged for a closer look

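For the genes below the change with ibrutinib differed between the lines by a test of the difference itself (limma, 24 libraries). All values are log2 differences of change, Sem minus Nalm6. Those in which Sem was lower were EGR1 at -3.37, KCNK3 at -2.83, DUSP6 at -2.81, TNF at -2.54, AHRR at -2.34, ALOX5AP at -2.19, EMP1 at -2.17, ANPEP at -1.81, SPRY4 at -1.73, ITGB2 at -1.69, FUT7 at -1.58, TMEM119 at -1.49, PRKD2 at -1.41, TRPM2 at -1.39 and SMAGP at -1.37. KCNK3, AHRR, EMP1, ANPEP, SPRY4, FUT7 and TMEM119 had means under 1 FPKM in Nalm6 with and without ibrutinib, so their differences rest mainly on Sem.

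Smaller negative differences were found for RAG1 at -0.94, TRIB3 at -0.81, CHAC1 at -0.69, DDIT3 at -0.64, DNTT at -0.50 and BTK at -0.22. RAG1, which cuts immunoglobulin genes for recombination, and DNTT, which adds bases at the joints, were near 0 in Sem, and their differences rest on Nalm6, where the RAG1 mean was 75.6 FPKM untreated and 149 with ibrutinib.

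Sem was higher for AC119396.1 at 1.66, RHOB at 1.59, HDAC9 at 1.48, BIK at 1.41, PLD4 at 1.37, FCRLA at 1.25, IGLL1 at 1.23, TMEM136 at 1.09, PTPN6 at 1.08, CD24 at 1.00, BCL2 at 0.90, MMP11 at 0.84, SESN3 at 0.80, HMGCS1 at 0.73, YPEL2 at 0.69, NIPSNAP3B at 0.69, SMIM14 at 0.58, FLT3 at 0.46, CXCR4 at 0.45, KLHL24 at 0.44, SCD at 0.43, ARRDC3 at 0.27 and SYK at 0.23. BIK, a BH3-only death protein, rose in Sem from a mean of 0.868 to 1.93 FPKM (log2 change 0.64, which was 0.57 without untreated library 3 and 0.51 without ibrutinib library 2, called under neither) and fell in Nalm6 from 4.84 to 2.41. TMEM136 had no read and FLT3 under 1 FPKM in Nalm6, so these differences rest on Sem. The call was lost under at least 1 setting for ARRDC3, DNTT, FLT3, NIPSNAP3B and SMIM14.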

How the results depend on the processing

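The count of genes called in Sem, 5573, was 4774 with only the 6 libraries, 5814 with the replicate block, 5583 and 5551 with pseudocounts of 0.1 and 5, 5093 without a filter, 4417 with a filter of 5 FPKM, 5930 after TPM rescaling, 5049 after quantile normalization, 6193 by limma-voom on the recovered reads, 4825 to 5401 with 1 library left out, 4873 without both libraries numbered 2 and 5680 after the length and GC correction. After that correction 4558 of the called genes (81.8%) kept their call and direction. Deviations from the group mean correlated at 0.047, 0.103 and 0.029 between same-numbered libraries and at -0.095 to 0.045 between differently numbered ones. Whether the replicate numbers pair the libraries was not stated and was not tested. The count of differences from Nalm6, 2064, ran from 1623 to 2179 with 1 library left out and was 2092 with the replicate block. Of 277 named genes, 214 kept call and direction under all 18 settings, 56 lost the call and 7 gained one under at least 1. After quantile normalization the changes of CD79A (0.002756), MAX (0.01541), MCL1 (0.03351) and SCD (0.05021) turned positive; the cause was not tested. Of 57 named differences, 49 kept call and direction under 17 settings and none reversed. Depth limits low values: with 3 to 8 reads left, as for SPRY4 with ibrutinib, a fold is imprecise.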

Other observations

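Transport and synthesis of amino acids moved in both directions in Sem. Of 16 tested transporters 4 rose and 7 fell. SLC7A5, the large neutral amino acid carrier, fell from 80.5, 83.7 and 84.1 FPKM to 53.2, 54 and 54.8, and its partner SLC3A2 by 0.48 on the log2 scale. SLC7A11, the cystine carrier, rose from 0.651, 0.787 and 0.714 FPKM to 1.49, 1.6 and 1.46. Amino acid and one-carbon synthesis genes fell in 10 of 20 and rose in 2, with SHMT2, the mitochondrial serine enzyme, falling from a mean of 38.5 to 30.6 FPKM. Genes of the endoplasmic reticulum chaperones fell in 14 of 22 and rose in 3: HSPA5, the main chaperone there, fell from 118, 123 and 123 FPKM to 85.5, 93.8 and 89.2, while EIF2AK3 and EDEM1 rose by 0.36 and 0.38 on the log2 scale. The shares called over all tested genes were 20.3% higher and 21.3% lower.

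Regulators of the G1 phase fell in 10 of 18 and rose in 2. CDK4 and CDC25A, which drive entry into S phase, changed by -0.46 and -0.47, and RBL2, a brake of the retinoblastoma family, by 0.24. Autophagy and lysosome genes rose in 11 of 37 and fell in 6 (45.9% called, beside 41.5% over all tested genes), with ULK1, the kinase that starts autophagy, rising from 12.2, 12.2 and 11.3 FPKM to 19, 19.8 and 19.1. Among 19 interferon response genes 6 rose and 4 fell (52.6% called), and IFITM1, a membrane protein that hinders virus entry, fell from a mean of 3.49 to 1.49 FPKM. Chosen after their values were seen, HBEGF, a growth factor of the epidermal family, fell from 8.74 to 3.01 FPKM, PLAUR, the urokinase receptor, from 5.54 to 1.99, and TIMP1, a metalloprotease inhibitor, by 1.19 on the log2 scale.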
